A study of Mus musculus with 2 samples.

Results

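Genes for checkpoint and costimulatory receptors, Pdcd1, Cd160, Icos, Ctla4, Lag3 and Tigit, were followed across innate lymphoid cells (ILCs) of the mouse gut. They were taken by name, and all 6 were found among the 17238 genes of the deposited count table. The table came from single-cell RNA sequencing with the 10x Genomics Chromium 3′ v2 kit, in which each captured transcript is counted once by a unique molecular identifier (UMI). There was 1 library of small intestine cells and 1 of colon cells, both from fed C57BL/6 mice aged 8 weeks, and the cells of both were sorted as IL7ra+ ILCs. Each library was a pool of 8 mice, so no spread between mice was measured. No test between the tissues was possible, and every interval below is a 95% interval for counting error only.

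Checkpoint receptors sit on the surface of lymphocytes and damp or aid the signals that follow contact with a ligand on another cell. ICOS aids activation after it binds ICOS ligand, whereas CTLA-4, its structural relative, binds CD80 and CD86 and restrains activation. PD-1, encoded by Pdcd1, binds PD-L1 and PD-L2, LAG-3 binds MHC class II and other ligands, TIGIT binds the poliovirus receptor and nectins, and CD160 binds the herpesvirus entry mediator Tnfrsf14 and MHC class I molecules. Among ILCs, ICOS is known to support the survival of type 2 ILCs (ILC2s), and PD-1 marks ILC precursors and restrains activated ILC2s. CD160 is known from intraepithelial lymphocytes of the gut and from natural killer (NK) cells.

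In GENCODE vM21 coordinates on mm10, Ctla4 (ENSMUSG00000026011) lies on chromosome 1 from 60887000 to 60915832 on the plus strand, and Icos (ENSMUSG00000026009) follows it on the same strand from 60977927 to 61000320, 62095 bases after its end. Pdcd1 (ENSMUSG00000026285) lies on chromosome 1 from 94038305 to 94052553 on the minus strand. Cd160 (ENSMUSG00000038304) lies on chromosome 3 from 96798763 to 96829351, Lag3 (ENSMUSG00000030124) on chromosome 6 from 124904361 to 124911705 and Tigit (ENSMUSG00000071552) on chromosome 16 from 43648867 to 43664146, all on the minus strand. Cd160 overlaps Pdzk1 on the other strand, a pseudogene of Rpl18 lies within Ctla4 and the unclassified transcript Gm37039 lies within Icos.

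Promoter windows from RefSeq (build GRCm38.p6) were found for 4 of the 6 genes. The windows of Pdcd1 and Cd160 are shown because these genes differed between the tissues in opposite directions in every group of cells compared below. Each is the 250 bases before a RefSeq start, read 5′ to 3′ on the gene's strand, for Pdcd1 chr1:94052554-94052803 and for Cd160 chr3:96814522-96814771, both on the minus strand. The Cd160 window lies inside the gene span given above, before an internal start. It was taken because it holds no exon of another gene, and another RefSeq start of Cd160 was not used. Capitals mark matches, on either strand, to TGTGGT (a core of RUNX sites), AGGTCA (a half-site of nuclear receptors such as RORγt), TCACACC (a T-box core) or GATAA (a core of sites bound by GATA3 and its relatives), 4 families of transcription factors that include known regulators of ILC subsets.
Pdcd1: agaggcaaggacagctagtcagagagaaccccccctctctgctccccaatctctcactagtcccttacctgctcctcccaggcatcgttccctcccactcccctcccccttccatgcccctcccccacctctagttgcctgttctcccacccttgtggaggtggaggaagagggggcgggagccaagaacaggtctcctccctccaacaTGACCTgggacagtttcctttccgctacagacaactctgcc
Cd160: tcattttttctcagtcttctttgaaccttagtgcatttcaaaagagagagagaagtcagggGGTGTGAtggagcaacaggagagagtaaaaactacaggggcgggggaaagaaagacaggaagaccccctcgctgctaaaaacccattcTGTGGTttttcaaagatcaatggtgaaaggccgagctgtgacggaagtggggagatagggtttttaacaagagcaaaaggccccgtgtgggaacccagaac
The Pdcd1 window held the nuclear receptor half-site on the other strand, starting 41 bases before the start, and had 60.4% G and C. The Cd160 window held the T-box core on the other strand 189 bases and the RUNX core 101 bases before the start, and had 47.6% G and C. The matches did not overlap each other. Among 32851 windows of this length, 14.05% held TGTGGT, 14.02% AGGTCA, 3.33% TCACACC and 22.6% GATAA. The Ctla4 window held 0 matches and the Tigit window 2, a RUNX and a GATA core.

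The deposited table held 5490 small intestine cells and 7549 colon cells, with 15080081 and 22332691 UMIs in all and medians of 2579 and 2600 UMIs per cell. A total of 60 barcodes were in both libraries. Cells were grouped by at least 1 UMI of Ccr6 (a marker of LTi-like ILC3s), Ncr1 (NKp46, on NCR+ ILC3s, ILC1s and NK cells), Gata3 (ILC2s), Klrd1 (CD94, on ILC1s and NK cells) or Cd3e (T cells). These groups held 541, 1605, 1643, 172 and 429 small intestine cells, against 357, 665, 4218, 482 and 1384 colon cells. None of the 5 markers was seen in 1882 small intestine and 1615 colon cells. The groups overlap. Of Klrd1+ cells, 52.3% of small intestine and 45.0% of colon cells were also Ncr1+, and 29.1% and 19.5% were also Cd3e+. Of Ccr6+ cells, 21.8% of small intestine and 34.7% of colon cells were also Gata3+. Colon Ccr6+ cells were the deepest group, with a median of 3443 UMIs against 2366 UMIs in small intestine Ccr6+ cells. Although the cells were sorted as ILCs, 7.81% of small intestine and 18.3% of colon cells had a Cd3e UMI, and Trdc, a chain of the γδ T cell receptor, was seen in 8.69% and 19.96%. The 8 T cell markers listed summed to 1792 counts per 1000000 UMIs (CPM) in the small intestine, against 2124 CPM in the colon, with none at 0. Cd8a was the lowest of them, at 3.85 CPM in the small intestine, against 1.16 CPM in the colon. In Klrd1+ cells Cd8a was at 74.5 CPM in the small intestine, against 5.73 CPM in the colon. Gzma, listed for ILC1s and NK cells, was at 1931 CPM in small intestine Klrd1+ cells, against 9.55 CPM in those of the colon. It was seen in 18.6% of the small intestine Klrd1+ cells. In Cd3e+ cells Gzma was at 752.5 CPM in the small intestine, against 3.56 CPM in the colon. Gzma therefore does not set ILC1s and NK cells apart from T cells here. The part of T cells in the results below was not tested beyond the values without Cd3e+ cells. The 4 myeloid markers in the table summed to 1.72 CPM in the small intestine, against 2.73 CPM in the colon. Il7r, the sorted receptor, was at 874 CPM in the small intestine, against 496 CPM in the colon.

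Summed over all cells, Cd160, Lag3 and Ctla4 were higher in the small intestine, Pdcd1 was higher in the colon, and Icos was close to equal. Cd160 was at 142 CPM in the small intestine (136 to 148), against 40.4 CPM in the colon (37.8 to 43.2), 3.51-fold higher in the small intestine (interval of the ratio 3.24 to 3.79). Lag3 was at 22.9 CPM in the small intestine, against 9.45 CPM in the colon, 2.42-fold higher (2.03 to 2.89). Ctla4 was at 79.1 CPM in the small intestine, against 46.4 CPM in the colon, 1.71-fold higher (1.57 to 1.86). Pdcd1 was at 57.9 CPM in the small intestine (54.1 to 61.9), against 161 CPM in the colon (156 to 166), 2.78-fold higher in the colon (2.58 to 2.997). Icos was at 354 CPM in the small intestine, against 407 CPM in the colon, 1.15-fold higher in the colon (1.11 to 1.19).

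Tigit was close to undetected, with 3 UMIs in 3 small intestine cells and 12 UMIs in 12 colon cells, and it had 0 UMIs in the barcodes with 10 to 50 UMIs from which free RNA was read. The interval of its ratio (0.067 to 1.37, small intestine over colon) included 1. Its UMIs were 1 small intestine and 5 colon UMIs in Klrd1+ cells, and 0 and 6 in Cd3e+ cells, where 0 of 429 cells allows a share of up to 0.699% with a UMI. Within the colon it was at 3.18 CPM in Klrd1+ cells and 0.337 CPM in the others (9.44-fold, 2.36 to 34.6), which rests on 5 and 7 UMIs.

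Of the 5 members with at least 20 UMIs, 2 passed 2-fold toward the small intestine and 1 toward the colon, where 8.92% and 5.42% of the 11962 genes with at least 20 UMIs were. The median gene was itself 0.20 above 0 on the log2 scale, small intestine over colon, and between 0.15 and 0.21 in the marker groups. In a sum over all cells, fewer cells of a type and less RNA per cell cannot be told apart, and the members were next compared within the marker groups.

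**Figure D1:**
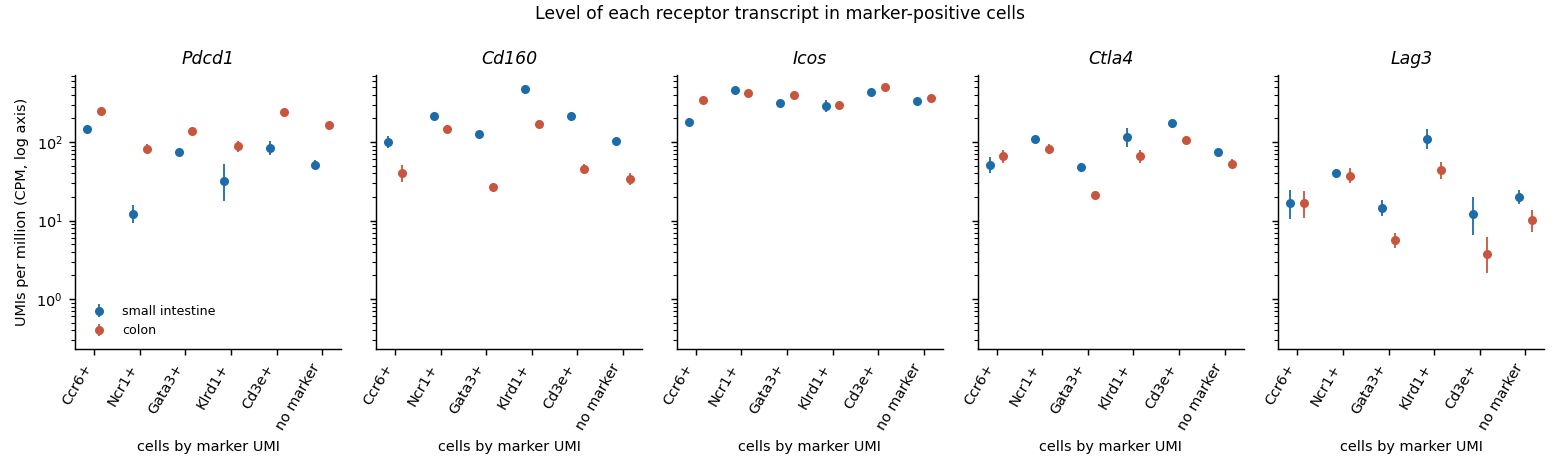
Level of each receptor transcript (CPM, log axis shared by the panels) in cells with at least 1 UMI of the marker named on the horizontal axis, or of none of the 5, in the small intestine (blue, left of each pair) and the colon (red, right). Points are sums over the cells of 1 library and bars are 95% Poisson intervals for counting error. Pdcd1 is higher in the colon and Cd160 in the small intestine in every group shown, and Lag3 is highest in Klrd1+ cells of both tissues, at 111 and 43.9 CPM.

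Pdcd1 was higher in the colon within each of the 5 marker groups. In Ncr1+ cells it was at 12.2 CPM in the small intestine (9.28 to 15.8, from 58 UMIs), against 81.1 CPM in the colon (69.8 to 93.9, from 181 UMIs), 6.64-fold higher in the colon (4.91 to 9.08). In Cd3e+ cells it was at 83.3 CPM in the small intestine, against 242 CPM in the colon, 2.90-fold higher in the colon (2.35 to 3.61). In Gata3+ cells it was at 74.0 CPM in the small intestine, against 140 CPM in the colon (1.89-fold, 1.69 to 2.12), and in Ccr6+ cells at 144 CPM in the small intestine, against 252 CPM in the colon (1.74-fold, 1.47 to 2.07). The 172 small intestine Klrd1+ cells held 15 Pdcd1 UMIs and gave 31.9 CPM, against 87.9 CPM in the colon (2.75-fold, 1.61 to 5.05). Where the marker was read after thinning each cell to 1000 UMIs, the log2 ratio of Pdcd1 was −0.40 in Klrd1+ cells, against −1.46, and −1.87 in Ncr1+ cells, against −2.73.

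The order of the groups by Pdcd1 level was alike in the tissues, with Ccr6+ and Cd3e+ cells at the top and Ncr1+ cells at the bottom. Among small intestine groups the intervals of Ccr6+ cells lay above all others, those of Cd3e+ and Gata3+ cells overlapped, and Ncr1+ cells lay below all others. In the colon the intervals of Ccr6+ and Cd3e+ cells overlapped, as did those of Klrd1+ and Ncr1+ cells, with Gata3+ cells and cells without a marker between. After each cell was thinned to 1000 UMIs, Pdcd1 was detected in 9.24% of the small intestine and 22.1% of the colon Ccr6+ cells (21.4% and 49.0% before thinning). In Ncr1+ cells it was detected in 0.997% of the small intestine and 5.26% of the colon cells (2.49% and 13.7% before thinning). Among the cells in which Pdcd1 was seen, 74 of 558 small intestine cells and 435 of 1851 colon cells had at least 3 UMIs, with a maximum of 7 and 14.

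Cd160 ran the other way, higher in the small intestine in all 5 groups. In Cd3e+ cells it was at 213 CPM in the small intestine, against 45.1 CPM in the colon (4.73-fold, 3.90 to 5.74), and in Gata3+ cells at 126 CPM in the small intestine, against 27.1 CPM in the colon (4.64-fold, 4.08 to 5.29). The smallest difference was in Ncr1+ cells, with 212 CPM in the small intestine, against 147 CPM in the colon (1.44-fold, 1.27 to 1.64). In Ccr6+ cells the levels were 101 CPM in the small intestine, against 40.4 CPM in the colon (2.49-fold, 1.84 to 3.39). Klrd1+ cells had the highest level in both tissues, 468 CPM in the small intestine, against 169 CPM in the colon (2.78-fold, 2.31 to 3.33), and 59.9% and 35.1% of them had a Cd160 UMI (33.7% and 14.3% after thinning). In the small intestine the intervals of Cd3e+ and Ncr1+ cells overlapped below Klrd1+ cells, and in the colon those of Klrd1+ and Ncr1+ cells overlapped above the rest. Among cells positive for 1 marker alone or for none, the intervals of the tissues overlapped only in the Klrd1 group. In the 31 small intestine and 120 colon cells positive for Klrd1 alone, Cd160 was at 202 CPM in the small intestine (113 to 332.5, from 15 UMIs), against 177 CPM in the colon (133 to 230.2, from 55 UMIs).

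Icos had the smallest tissue difference of the 5 over all cells. It was at 455 CPM in small intestine and 419 CPM in colon Ncr1+ cells (1.09-fold, 1.01 to 1.17), a difference that turned to a log2 ratio of −0.09 with a median-ratio size factor. In Klrd1+ cells it was at 287 CPM in the small intestine, against 294 CPM in the colon, with a ratio interval (0.802 to 1.19) that included 1. It was at 312 CPM in small intestine and 401 CPM in colon Gata3+ cells (1.29-fold higher in the colon, 1.22 to 1.36), and at 436 CPM in small intestine and 502 CPM in colon Cd3e+ cells (1.15-fold higher in the colon, 1.05 to 1.27). Ccr6+ cells stood apart, with 180 CPM in the small intestine, against 347 CPM in the colon (1.92-fold higher in the colon, 1.65 to 2.24). In cells positive for Ccr6 alone, Icos was at 155 CPM in the small intestine, against 273 CPM in the colon. The small intestine Ccr6+ cells were the lowest group of that tissue, with an interval (159 to 204 CPM) below the others, whereas colon Ccr6+ cells overlapped Klrd1+ cells and cells without a marker.

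Ctla4 was highest in Cd3e+ cells of both tissues, although in the small intestine their interval met that of Klrd1+ cells. It was at 173 CPM in the small intestine, against 108 CPM in the colon in these cells (1.60-fold, 1.35 to 1.90). Gata3+ cells were lowest, at 47.6 CPM in the small intestine, against 21.5 CPM in the colon (2.22-fold, 1.86 to 2.64), with small intestine Ccr6+ cells overlapping them. With at least 2 Gata3 UMIs asked of a Gata3+ cell, its log2 ratio there was 0.38, against 1.15. In Ncr1+ cells it was at 108 CPM in the small intestine, against 81.6 CPM in the colon (1.32-fold, 1.11 to 1.57), and in cells positive for Ncr1 alone at 112 CPM in the small intestine, against 118 CPM in the colon. In Klrd1+ cells it was at 115 CPM in the small intestine, against 66.2 CPM in the colon (1.74-fold, 1.23 to 2.44). In Ccr6+ cells it was at 51.7 CPM in the small intestine, against 65.5 CPM in the colon, with a ratio interval (0.577 to 1.07) that included 1. Without Cd3e+ cells, Ctla4 over all cells was 2.22-fold higher in the small intestine, against 1.71-fold with them.

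Lag3 was highest in Klrd1+ cells, at 111 CPM in the small intestine (82.7 to 145, from 52 UMIs), against 43.9 CPM in the colon (34.2 to 55.6, from 69 UMIs), 2.52-fold higher in the small intestine (1.72 to 3.66). In the colon the interval of Ncr1+ cells overlapped that of Klrd1+ cells, and in the small intestine it lay below. In Ncr1+ cells it was at 39.8 CPM in the small intestine, against 37.2 CPM in the colon, and in Ccr6+ cells at 16.5 CPM in both, with ratio intervals that included 1 in both groups. In Gata3+ cells it was at 14.6 CPM in the small intestine, against 5.62 CPM in the colon (2.60-fold, 1.86 to 3.62). Cd3e+ cells held 14 UMIs in the small intestine, against 16 in the colon (3.17-fold higher in the small intestine, 1.43 to 6.93), but those positive for Cd3e alone held 1 and 5, a log2 ratio of −0.72 against 1.66. With at least 2 Gata3 UMIs the log2 ratio in Gata3+ cells was 0.73, against 1.38. In the cells positive for Klrd1 alone Lag3 was at 53.8 CPM (4 UMIs) in the small intestine, against 48.2 CPM (15 UMIs) in the colon.

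Counted over the 5 members with at least 20 UMIs, the number that passed 2-fold toward the small intestine or toward the colon was 1 or 0 in Ccr6+ cells, where 7.47% and 3.40% of all tested genes were. It was 0 or 1 in Ncr1+ cells (9.26% and 4.13% of genes), 3 or 0 in Gata3+ cells (7.42% and 4.40%), 2 or 1 in Klrd1+ cells (7.17% and 4.88%) and 2 or 1 in Cd3e+ cells (5.12% and 4.27%). With 5 genes each count is a description, and the members differed in direction.

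**Figure D2:**
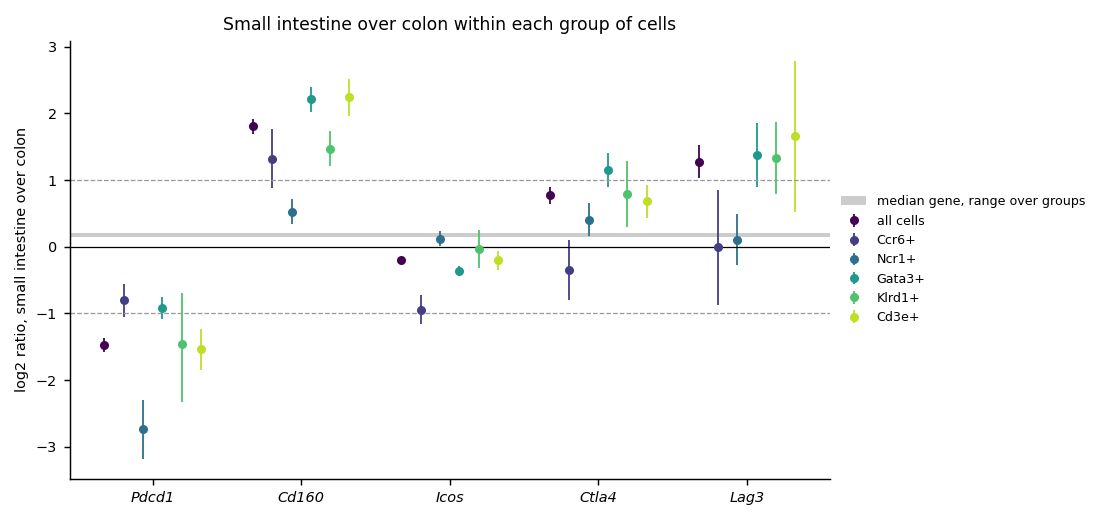
log2 ratio of CPM, small intestine over colon, for each receptor over all cells and within each marker group, with 95% counting intervals. The grey band is the range of the median gene over these groups and dashed lines mark 2-fold. Pdcd1 lies below 0 and Cd160 above 0 in every group, and Icos lies between −0.94 and 0.12.

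Free RNA, released from broken cells and captured with others, was estimated from barcodes with 10 to 50 UMIs to make up 5.36% of the UMIs of small intestine cells and 8.25% of those of colon cells. It would add 3.63 CPM of Pdcd1 in the small intestine, against 9.43 CPM in the colon. For Icos it would add 9.64 and 18.2 CPM, for Cd160 6.19 and 2.25 CPM, for Ctla4 4.66 and 4.60 CPM and for Lag3 0.472 and 0.287 CPM. Every level of the 5 detected members given above lay over these values, the nearest being Pdcd1 in small intestine Ncr1+ cells at 12.2 CPM.

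The members were then compared between marker-positive cells and all other cells of the same tissue, which share 1 library and its free RNA. Klrd1+ cells had the clearest pattern. Of these cells 29.1% (small intestine) and 19.5% (colon) were also Cd3e+. The pattern is therefore not assigned to ILC1s and NK cells alone. Small intestine Lag3 was at 111 CPM in Klrd1+ cells and 20.1 CPM in the others (5.52-fold, 4.03 to 7.44), and Cd160 at 468 CPM and 131 CPM (3.57-fold, 3.09 to 4.11). In the colon Lag3 was at 43.9 CPM in Klrd1+ cells and 6.84 CPM in the others (6.42-fold, 4.75 to 8.62), and Cd160 at 169 CPM and 30.7 CPM (5.49-fold, 4.74 to 6.35). Pdcd1 was lower in Klrd1+ cells than in the others, 1.84-fold in the small intestine (1.11 to 3.30) and 1.89-fold in the colon (1.60 to 2.26). In cells positive for Klrd1 alone the log2 ratio over the other cells was 0.62 for Cd160 and 1.42 for Lag3 in the small intestine, against 1.84 and 2.46 in all Klrd1+ cells. With Klrd1 read after thinning, the log2 ratio of Pdcd1 in the small intestine was −0.12 (14 UMIs), against −0.88, and in cells positive for Klrd1 alone it was −1.69 in the colon, against −0.92. Icos was 1.24-fold lower in small intestine (1.05 to 1.48) and 1.42-fold lower in colon Klrd1+ cells (1.29 to 1.56), but in small intestine cells positive for Klrd1 alone its log2 ratio was 0.13 (29 UMIs), against −0.31. Ctla4 in the colon, without Cd3e+ cells, had a log2 ratio of 1.24, against 0.56. In all, 2 of the 5 members were at least 2-fold higher and 0 at least 2-fold lower in Klrd1+ cells of each tissue, where 5.90% and 8.55% of small intestine genes and 4.81% and 6.73% of colon genes were.

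Ncr1+ cells shared the higher Lag3 and the lower Pdcd1. Lag3 was 2.64-fold higher in small intestine (2.12 to 3.28) and 5.84-fold higher in colon Ncr1+ cells (4.38 to 7.76) than in the others. Pdcd1 was 6.45-fold lower in small intestine (4.94 to 8.57) and 2.09-fold lower in colon Ncr1+ cells (1.80 to 2.44). Cd160 was 1.93-fold higher in the small intestine (1.78 to 2.11) and 5.14-fold higher in the colon (4.48 to 5.90). Ctla4 was 1.63-fold higher in small intestine and 1.92-fold higher in colon Ncr1+ cells, and Icos was 1.48-fold higher in the small intestine, with a colon interval (0.965 to 1.11) that included 1. The log2 ratio of Pdcd1 was −3.56 in small intestine cells positive for Ncr1 alone, against −2.69, and −1.79 in the colon with Ncr1 read after thinning, against −1.07. Without Cd3e+ cells that of Ctla4 in the colon was 1.62, against 0.94. Of the 5 members 1 was at least 2-fold higher and 1 lower in the small intestine (1.90% and 5.68% of genes), and 2 were higher and 1 lower in the colon (4.38% and 6.39%).

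Gata3+ cells had less of the members other than Icos in the colon. Ctla4 was at 21.5 CPM in colon Gata3+ cells and 84.6 CPM in the others (3.94-fold lower, 3.44 to 4.53), Lag3 at 5.62 CPM and 15.3 CPM (2.72-fold lower, 2.04 to 3.66) and Cd160 at 27.1 CPM and 60.9 CPM (2.25-fold lower, 1.97 to 2.58). Icos differed by 1.04-fold there, with an interval that included 1. Pdcd1 was lower in colon Gata3+ cells (1.38-fold, 1.29 to 1.48) but higher in small intestine Gata3+ cells, at 74.0 CPM against 49.7 CPM in the others (1.49-fold, 1.30 to 1.71). Ctla4 in the small intestine was at 47.6 CPM in Gata3+ cells and 95.1 CPM in the others, just under the 2-fold line. These values depended on how a Gata3+ cell was defined. With at least 2 Gata3 UMIs the small intestine log2 ratio was −2.14 for Ctla4 and −1.96 for Lag3, both past 2-fold, against −0.9995 and −0.89. In colon cells positive for Gata3 alone it was −2.99 for Ctla4, −2.06 for Cd160 and −2.15 for Lag3, against −1.98, −1.17 and −1.45. With 1 Gata3 UMI asked, the count of members at least 2-fold higher or lower was 0 and 0 in the small intestine (2.75% and 3.85% of genes) and 0 and 3 in the colon (2.90% and 6.40%).

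Ccr6+ and Cd3e+ cells were the groups with more Pdcd1 in both tissues. Pdcd1 was 2.94-fold higher in small intestine Ccr6+ cells than in the others (2.499 to 3.45) and 1.64-fold higher in colon Ccr6+ cells (1.47 to 1.81), while Icos was 2.06-fold lower in small intestine (1.82 to 2.35) and 1.19-fold lower in colon Ccr6+ cells (1.09 to 1.30). In Cd3e+ cells Pdcd1 was 1.49-fold higher in the small intestine (1.20 to 1.85) and 1.70-fold higher in the colon (1.58 to 1.83). Ctla4 was 2.42-fold higher in small intestine Cd3e+ cells (2.07 to 2.82) and 3.35-fold higher in colon Cd3e+ cells (2.96 to 3.79), and Lag3 was 1.98-fold lower in the small intestine (1.16 to 3.66) and 2.84-fold lower in the colon (1.70 to 5.06). In cells positive for Cd3e alone the log2 ratio of Lag3 was −4.09 in the small intestine, from 1 UMI, against −0.98, and −2.23 in the colon, from 5 UMIs, against −1.51. Icos was 1.25-fold and 1.30-fold higher in these cells. In Ccr6+ cells 1 member was at least 2-fold higher and 1 lower in the small intestine (5.83% and 6.39% of genes) and 0 and 0 in the colon (8.16% and 6.55%). In Cd3e+ cells 1 was higher and 0 lower in the small intestine (3.93% and 9.42%) and 1 higher and 1 lower in the colon (3.79% and 5.71%).

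**Figure D3:**
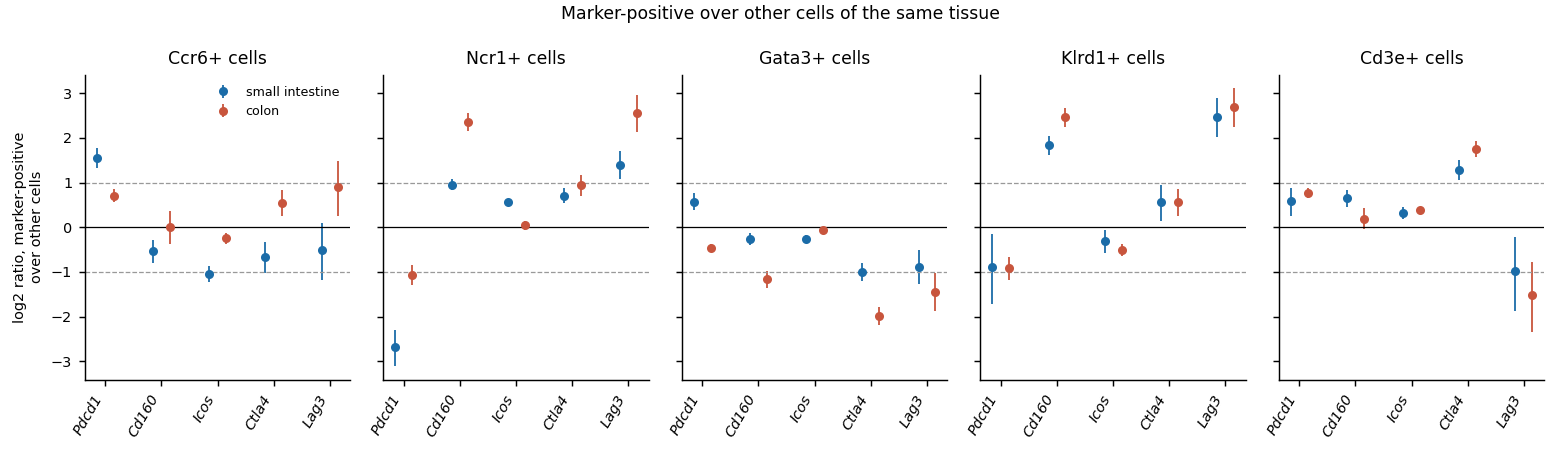
log2 ratio of CPM in marker-positive over the other cells of the same tissue for each receptor, in the small intestine (blue, left of each pair) and the colon (red, right), with 95% counting intervals and dashed lines at 2-fold. In Klrd1+ cells Cd160 and Lag3 lie above the upper line in both tissues, and in Cd3e+ cells Ctla4 does.

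Cells in which a member was seen were compared with cells in which it was not, a choice made on the counts themselves. Cells with a UMI were somewhat deeper, with medians of 2654 to 2828 UMIs against 2449 to 2595 UMIs, and the part of depth in the ratios below was not tested. The ratios over all cells of a tissue also mix the marker groups, and within a group several were smaller and others as large or larger. Lag3 was at 38.0 CPM in small intestine cells with Cd160 and 16.6 CPM in those without (2.29-fold, 1.84 to 2.84), and at 24.4 CPM in colon cells with Cd160 and 7.67 CPM in those without (3.19-fold, 2.31 to 4.34). Within Ncr1+ cells the ratio was 1.83 in the small intestine (1.36 to 2.47), against 1.21 in the colon (0.752 to 1.92), and within Klrd1+ cells 1.35 in the small intestine (0.731 to 2.61), against 1.385 in the colon (0.835 to 2.28), so that 3 of these 4 intervals included 1. Within Gata3+ cells it was 2.29 in the small intestine (1.41 to 3.71), against 3.505 in the colon (1.97 to 5.98). Within Cd3e+ cells it was 3.55 in the small intestine (1.07 to 13.5), against 5.26 in the colon (1.66 to 15.9). In Ccr6+ cells the intervals of both tissues included 1. Ctla4 was 1.94-fold higher in small intestine (1.72 to 2.19) and 1.69-fold higher in colon cells with Icos (1.48 to 1.94). Within Cd3e+ cells it was 2.06-fold higher in the small intestine (1.498 to 2.88) and 1.95-fold higher in the colon (1.54 to 2.49), but within Ncr1+ cells the ratio was 1.18 in the small intestine (0.977 to 1.43), against 0.849 in the colon (0.623 to 1.16), and within Klrd1+ cells 0.959 in the small intestine, against 0.977 in the colon. Within Ccr6+ cells the ratio was 1.79 in the small intestine (1.10 to 2.93), against 2.18 in the colon (1.29 to 3.91). Within Gata3+ cells it was 1.37 in the small intestine (1.055 to 1.79), against 2.20 in the colon (1.66 to 2.95). Icos was at 229 CPM in small intestine cells with Pdcd1 and 370 CPM in those without (0.621-fold, 0.558 to 0.689), but at 453 CPM in colon cells with Pdcd1 and 389 CPM in those without (1.16-fold, 1.11 to 1.22). Within small intestine groups this Icos ratio was 0.573 in Ncr1+ (0.408 to 0.782), 0.715 in Gata3+ (0.611 to 0.833) and 0.747 in Cd3e+ cells (0.561 to 0.98). In small intestine Ccr6+ cells it was 1.02 (0.746 to 1.38). In the colon it was 1.235 in Gata3+ (1.17 to 1.31) and 1.115 in Cd3e+ cells (1.02 to 1.22). The intervals of colon Ccr6+, Ncr1+ and Klrd1+ cells included 1. Over all cells, Cd160 was lower in cells with Pdcd1, 0.590-fold in the small intestine (0.495 to 0.699) and 0.660-fold in the colon (0.559 to 0.776). Within small intestine Ncr1+ cells the ratio was 0.998 (0.679 to 1.42) and within Ccr6+ cells 0.948 (0.611 to 1.43), and small intestine Ncr1+ cells with Cd160 had 1.86-fold more Pdcd1 than those without (1.07 to 3.28). Within colon Ncr1+ cells Cd160 was 0.511-fold in those with Pdcd1 (0.356 to 0.716). With Pdcd1, Cd160 was also lower in small intestine Gata3+ cells (0.545-fold, 0.410 to 0.712) and in colon Ccr6+ cells (0.530-fold, 0.312 to 0.888). The same held in colon Klrd1+ (0.486-fold, 0.323 to 0.7085) and colon Cd3e+ cells (0.629-fold, 0.452 to 0.865). In small intestine Cd3e+ (0.795-fold) and colon Gata3+ cells (0.884-fold) the intervals included 1. The difference in ratio between the tissues was not tested.

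In each tissue, cells with Pdcd1 had more of the transcripts named for that tissue below, apart from Xcl1, which was lower. These transcripts were chosen after their values were seen, and the difference between the tissues was not tested. Ratios are not quoted for the other listed ILC2 genes Klrg1, Il17rb and Hes1, nor for Il17a, Il17f and Il22 in the small intestine. The quoted genes are thus only part of their lists, and no ILC type is assigned to the cells with Pdcd1. No contrast between the tissues is drawn, since Il5 and Ccr6 were higher in both tissues in cells with Pdcd1. Those of the small intestine had more of the ILC2 genes Il5 (80.3 CPM in cells with Pdcd1 against 15.1 CPM in those without, 5.34-fold, 4.26 to 6.68), Il1rl1, the interleukin 33 receptor (3.31-fold, 2.31 to 4.69), Il13 (3.15-fold, 2.36 to 4.16), Gata3 (1.92-fold, 1.77 to 2.08) and Areg (2.14-fold, 1.97 to 2.32), and more Ccr6 (2.24-fold, 1.87 to 2.67). Xcl1, a chemokine of ILC1s and NK cells, was at 42.3 CPM in small intestine cells with Pdcd1 and 209 CPM in those without. In the colon the cells with Pdcd1 had more Il17a (4.40-fold, 3.49 to 5.57), Il17f (2.84-fold, 2.41 to 3.34), Il22 (2.37-fold, 2.32 to 2.41), Cd4 (2.73-fold, 2.37 to 3.14), Ccr6 (2.59-fold, 2.16 to 3.11) and Trdc (1.68-fold, 1.60 to 1.76). Il5 was 1.45-fold higher in colon cells with Pdcd1 (1.35 to 1.55), and Xcl1 was at 107 CPM in colon cells with Pdcd1 and 330 CPM in those without.

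By marker group, 42.8% of the 558 small intestine cells with Pdcd1 were Gata3+, 20.8% Ccr6+, 11.1% Cd3e+ and 7.17% Ncr1+, against 28.5%, 8.62%, 7.44% and 31.7% of cells without it. Of the 1851 colon cells with Pdcd1, 54.1% were Gata3+, 25.3% Cd3e+, 9.45% Ccr6+ and 4.92% Ncr1+, against 56.4%, 16.1%, 3.19% and 10.1% of cells without it. Cells with Pdcd1 thus held about as many Gata3+ cells as the rest of the colon and more than the rest of the small intestine.

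Cells with Lag3 had more Klrd1 (5.63-fold in the small intestine, 4.50 to 7.004, and 5.14-fold in the colon, 4.36 to 6.04), Xcl1 (4.88-fold and 4.53-fold), Tbx21, which encodes T-bet (2.51-fold and 2.21-fold), and Ifng (1.78-fold and 2.74-fold). Il22 was at 5457 CPM in colon cells with Lag3 and 1727 CPM in those without (3.16-fold, 3.06 to 3.27). These genes were chosen after their values were seen. Ratios are not quoted for the other listed ILC1 and NK cell genes Klrb1c, Klrk1, Eomes and Gzma, nor for Il22 in the small intestine. Of the 293 small intestine cells with Lag3, 55.6% were Ncr1+, and of the 186 colon cells with Lag3, 38.2% were. Cells with Cd160 had more Klrd1 as well, 5.33-fold in the small intestine (4.33 to 6.59) and 5.30-fold in the colon (4.71 to 5.96).

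**Figure D4:**
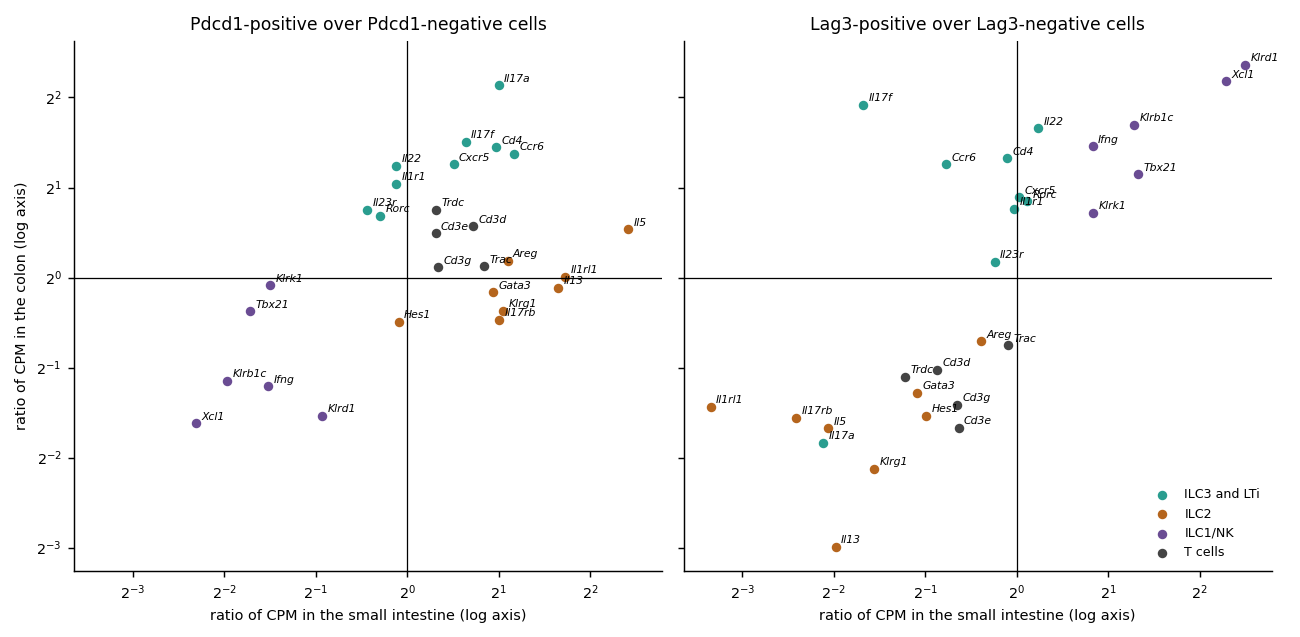
Ratio of CPM between cells with and without a UMI of Pdcd1 (left) or Lag3 (right) for marker transcripts of ILC3 and LTi cells, ILC2s, ILC1s and NK cells, and T cells, in the small intestine (horizontal, log axis) and the colon (vertical, log axis). Each point is 1 gene. For Pdcd1 the ILC2 gene Il5 lies above 1 in both tissues, at 5.34-fold in the small intestine and 1.45-fold in the colon. Il17a lies at the top, at 4.40-fold in the colon, and the difference between the tissues was not tested. For Lag3 the ILC1/NK genes lie up and to the right, and Il17a, with 0 UMIs in colon cells with Lag3, is drawn at a bound of 3 counts.

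Cells with Ctla4 had more T cell transcripts, among them Cd3e at 1.83-fold in the small intestine (1.59 to 2.11) and 2.54-fold in the colon (2.33 to 2.76), and Trac at 2.47-fold and 2.73-fold. They had less of the ILC2 gene Gata3, 0.346-fold in the small intestine, against 0.323-fold in the colon. Antibody transcripts were higher in them too, Igha by 11.5-fold in the small intestine, against 16.1-fold in the colon. There were 13 small intestine and 10 colon cells with over 10 UMIs of Igkc, Igha and Jchain, with medians of 15571 and 13632 UMIs and with 54 of 55 and 35 of 38 UMIs of the B cell gene Cd79a. These cells held 15 of the 1193 Ctla4 UMIs of the small intestine and 21 of the 1036 of the colon. Without them Ctla4 was at 79.1 CPM in the small intestine, against 45.7 CPM in the colon.

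The genes whose levels were most like those of each member were sought over 11 groups that do not share cells (cells positive for exactly 1 of the markers or for none, in each tissue, of at least 50 cells), by Pearson's r of log2(CPM + 10) over 8611 genes with at least 200 UMIs. The groups share 2 libraries, and r is a description. For Pdcd1 they were Agpat4, an acyltransferase (r = 0.91), Ramp1, part of the receptor for the peptide CGRP (0.86), and the histone gene Hist3h2a (0.85). For Cd160 they were the DNA sensor Aim2 (0.97), Mndal (0.94) and Nabp1 (0.93). For Icos they were Laptm5 (0.95), Cap1 (0.95) and the transcription factor Ets1 (0.935), for Ctla4 Bbc3 (0.97), Cox7c (0.95) and Rasa3 (0.93), and for Lag3 Litaf (0.98), the transcription factor Irf8 (0.97) and Nab1 (0.96). Among the members themselves Pdcd1 and Cd160 were opposed (−0.76), and r was 0.58 for Icos and Ctla4, 0.56 for Cd160 and Ctla4 and 0.52 for Cd160 and Lag3. Of the 8611 genes, Ctla4 stood only at rank 555 for Icos and at rank 999 for Cd160, and Lag3 at rank 1224 for Cd160. Tigit had too few UMIs to be ranked. With 10 overlapping groups in place of the 11, Cap1 stood at rank 1284 for Icos and Nab1 at rank 1101 for Lag3, and r of Icos and Ctla4 was 0.33.

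Among the other coinhibitory receptors, 13 of 14 listed genes had at least 20 UMIs, and the median log2 ratio was −0.49, against 0.20 over all genes. Of these 13, 3 passed 2-fold toward the small intestine and 4 toward the colon, where 8.92% and 5.42% of all genes did. Cd244, a SLAM family receptor of NK cells, was at 38.1 CPM in the small intestine, against 12 CPM in the colon (3.17-fold, 2.74 to 3.68). Cd96, which shares the ligand PVR with Tigit, was at 147 CPM in the small intestine, against 65.2 CPM in the colon (2.26-fold, 2.11 to 2.41). Btla, which shares the ligand Tnfrsf14 with CD160, held 6 UMIs in the small intestine, against 27 in the colon (3.04-fold higher in the colon, 1.23 to 9), and Havcr2, which encodes TIM-3, held 4 and 20 (3.38-fold, 1.13 to 13.6).

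Of 16 costimulatory receptors 2 passed 2-fold toward the small intestine and 7 toward the colon, where 8.92% and 5.42% of all genes did. Their median log2 ratio was −0.70. Cd28, the founding relative of Icos and Ctla4, had the largest difference of the list, with 16.5 CPM in the small intestine, against 169 CPM in the colon (10.2-fold higher in the colon, 8.98 to 11.7). Within the small intestine it was at 135 CPM in Cd3e+ cells and at 13.6 CPM in Gata3+ and 4.31 CPM in Ccr6+ cells, whereas in the colon it was at 102 CPM in Cd3e+, 180 CPM in Gata3+ and 50.2 CPM in Ccr6+ cells. Icos was 1.15-fold higher in the colon and Ctla4 1.71-fold higher in the small intestine. Tnfrsf4 (OX40) held 11 UMIs in the small intestine, against 46 in the colon (2.82-fold higher in the colon, 1.44 to 6.04), and Crtam held 71 and 27 (3.89-fold higher in the small intestine, 2.47 to 6.31). Cd226, which activates on binding PVR, was at 58.8 CPM in the small intestine, against 25.2 CPM in the colon (2.33-fold, 2.10 to 2.60). Tnfrsf14 held 11 UMIs in the small intestine, against 10 in the colon.

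Of the 12 genes listed as ligands of the members, 11 were found in the count table and 7 had at least 20 UMIs. Of these 7, 0 were at least 2-fold apart in either direction, where 8.92% of all genes passed 2-fold toward the small intestine and 5.42% toward the colon. Cd274 (PD-L1) was at 17.8 CPM in the small intestine, against 21.5 CPM in the colon, and Pdcd1lg2 (PD-L2) at 29.97 CPM in the small intestine, against 40.3 CPM in the colon (1.34-fold higher in the colon, 1.20 to 1.51). Tnfsf14 (LIGHT), counted among the 7 although it is a further ligand of Tnfrsf14 and not of a member, was at 45.8 CPM in the small intestine, against 82.9 CPM in the colon (1.81-fold higher in the colon, 1.66 to 1.98). Icosl had 171 UMIs in the small intestine, against 237 in the colon, with a ratio interval that included 1. Cd80 held 4 and 8 UMIs, and Cd86 1 and 2.

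Of 10 adaptors and phosphatases 2 passed 2-fold toward the small intestine and 0 toward the colon (median log2 ratio 0.31), where 8.92% and 5.42% of all genes did. Ptpn6 (SHP-1), a phosphatase recruited by inhibitory receptors, was at 118 CPM in the small intestine, against 44.6 CPM in the colon (2.66-fold, 2.46 to 2.88), and the kinase Lck at 168 CPM in the small intestine, against 67.3 CPM in the colon (2.49-fold, 2.34 to 2.66). Sh2d1a (SAP) held 55 and 41 UMIs (1.99-fold higher in the small intestine, 1.30 to 3.05). Of 15 transcription factors tied to checkpoint receptors in T cells, 14 had at least 20 UMIs (median 0.62). Of these, 5 passed 2-fold toward the small intestine and 1 toward the colon, beside the same 8.92% and 5.42% of all genes. Bcl6 held 43 UMIs in the small intestine, against 28 in the colon (2.27-fold, 1.38 to 3.80), Tbx21 was at 33.0 CPM in the small intestine, against 15.1 CPM in the colon (2.19-fold, 1.90 to 2.52), and Irf4 was at 3.85 CPM in the small intestine, against 8.24 CPM in the colon (2.14-fold higher in the colon, 1.59 to 2.93). Tox, a factor that sustains PD-1 in exhausted T cells, was at 108 CPM in the small intestine, against 102 CPM in the colon, with a ratio interval (0.990 to 1.13) that included 1.

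**Figure D5:**
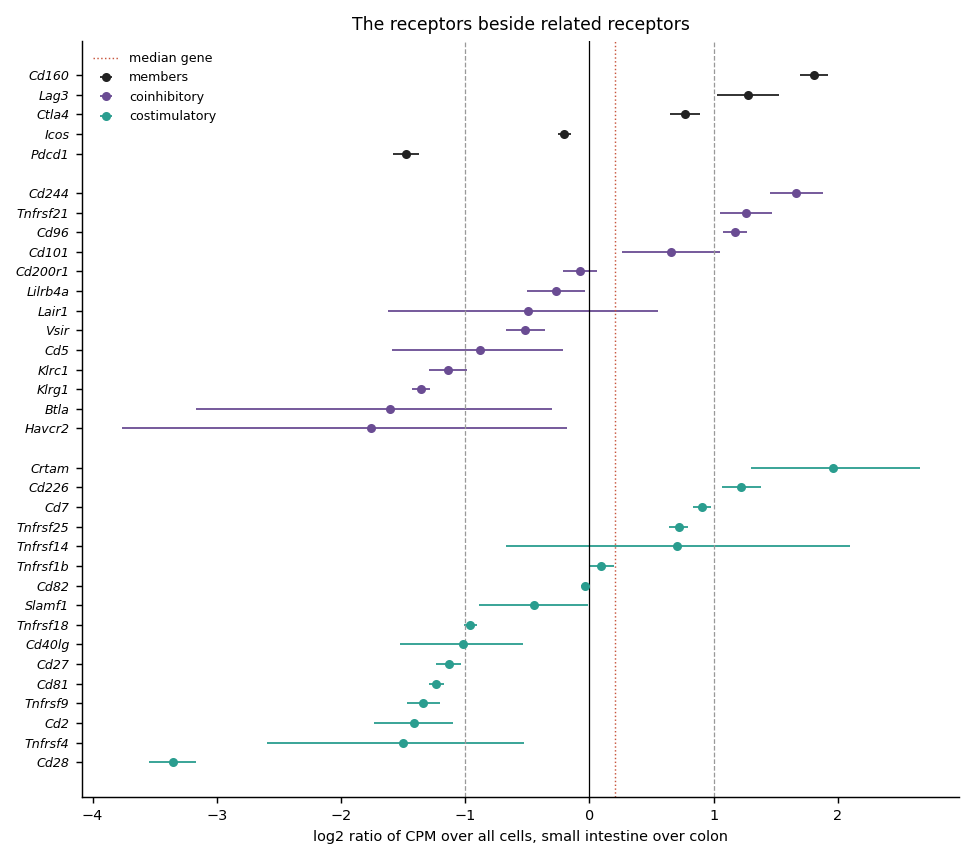
log2 ratio of CPM over all cells, small intestine over colon, for the 5 receptors with at least 20 UMIs (black), other coinhibitory receptors (purple) and other costimulatory receptors (green), with 95% counting intervals, dashed lines at 2-fold and a dotted line at the median gene. Cd28 lies farthest toward the colon, at −3.35, and Crtam and Cd160 lie farthest toward the small intestine.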

How the data were processed

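UMI counts per gene and cell were used as deposited. Per the submitters' processing notes they were made with Cell Ranger 3.0.2 on mm10, and the rule by which the authors chose cells and genes for the table is not given in the sources used here. The table's values equalled those of the deposited matrices of all barcodes in every cell (0 differed). The members, marker genes and gene lists were chosen with earlier results of these data known.

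Cells were grouped by at least 1 UMI of a marker, UMIs were summed over cells, and CPM is the sum divided by the total UMIs of the table's genes. With 1 library per tissue, 0 replicates and no test, intervals are exact at 95% (Poisson for levels, conditional binomial for ratios, Clopper-Pearson for shares) and cover counting error only. A count of 0 was given a limit of 3 counts. A gene was counted as higher past a 2-fold ratio, with at least 20 UMIs over the compared cells. Shares were thinned to 1000 UMIs per cell, which left out no cell of the table, and to 2000 as an alternative. Free RNA was taken from barcodes with 10 to 50 UMIs, scaled by the antibody genes Igkc, Igha and Jchain. Scrublet in scanpy 1.11.5 marked 0 small intestine and 1 colon cell as doublets at its own threshold, which is too few to have worked, so no doublets were removed and the 241 and 456 top-scoring cells were left out as an alternative. Python 3.11.15, numpy 2.4.6, scipy 1.17.1 and pandas 2.3.3 were used, and the ratios were checked on simulated data.

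Named were the 6 members, the 3 genes most like each, and of each list up to 3 genes of the largest ratio past its interval, with paralogs and binding partners of the members. Icosl, Cd80, Cd86 and Tox, and the transcripts named for cells with a member, were chosen after their values were seen. Alternatives were a quality filter on cells, doublets, shared barcodes, a median-ratio size factor, no minimum count, free RNA subtracted, means over cells, Cd3e+ cells left out, and marker groups defined by 2 UMIs, by 1 marker alone or after thinning. Cells rich in antibody transcripts (over 10 UMIs of the 3 genes) were left out as an alternative chosen after seeing the data.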

Additional observations from a re-analysis of the deposited data

Results flagged for a closer look

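Icos differed between the tissues in opposite directions by marker group. Its log2 ratio, small intestine over colon, was 0.12 in Ncr1+ cells, −0.94 in Ccr6+ cells, −0.36 in Gata3+ cells and −0.20 in Cd3e+ cells. The difference between the groups was not tested, since each tissue had 1 library. The value in Ncr1+ cells was −0.09 with a median-ratio size factor.

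Barcodes outside the deposited table held Pdcd1. In the small intestine 395 barcodes with at least 1000 UMIs were not among the table's cells, and Pdcd1 was at 117.6 CPM in them (92.4 to 148, from 74 UMIs), against 57.9 CPM in the table's cells. In the colon 317 such barcodes gave 198 CPM (161 to 241), against 161 CPM in the table's cells.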

How the results depend on the processing

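With a median-ratio size factor, the log2 ratio over all cells, small intestine over colon, was −1.68 for Pdcd1, 1.605 for Cd160, −0.40 for Icos and 0.57 for Ctla4, against −1.48, 1.81, −0.20 and 0.77. This scaling takes the median gene, 0.20, as 0. Without Cd3e+ cells the ratio was −1.35 for Pdcd1, −0.15 for Icos and 1.15 for Ctla4. Lag3 in Cd3e+ cells turned to −0.72 in cells positive for Cd3e alone, where it had 1 small intestine and 5 colon UMIs, against 1.66. With no minimum count, 1825 genes passed 2-fold toward the small intestine and 1186 toward the colon, against 1067 and 648, since genes with few UMIs then enter. Over all cells, the quality filter, the removal of likely doublets, shared barcodes or antibody-rich cells (chosen after seeing the data), free RNA subtraction and means over cells left each of the 6 members' ratios within its counting interval. Within marker groups, the definition of the group moved more values: 10 of 27 tissue ratios after thinning, 7 of 26 with 2 UMIs and 9 of 26 with 1 marker alone. The ratios of marker-positive cells over the others moved more often, with 17 moved and 39 not after thinning, 20 and 35 with 2 UMIs, 30 and 24 with 1 marker alone and 12 and 34 without Cd3e+ cells. With 1 marker alone, 37 levels moved and 23 did not. The cause was not tested. Among the 15 genes named as most like a member, 8 left the 10 most alike with the overlapping groups and 1 with a pseudocount of 1 CPM. No paired analysis was possible because each tissue had 1 library and no test was made.

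The depth limits Tigit, with 3 small intestine and 12 colon UMIs, and Lag3 in Cd3e+ cells. Each library is 1 pool of mice, so differences between mice, sorts or library preparations cannot be told apart from those between tissues.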
